A study of Homo sapiens with 4 samples.

Results

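A set of 44 genes that drive mitosis and cytokinesis was followed in Meg-01 cells, an established human megakaryoblastic leukemia line, after lentiviral shRNA knockdown of GATA1. The members are a list of names, drawn up with earlier results of these data known. The rule itself uses no measured value: every non-control probe of the array whose design symbol was one of the 44 was taken. This gave 44 of the 30499 symbols and 56 of the 41000 probes on the array. CDC2 is the array's name for CDK1, and CENPJ is now listed as CPAP. Of the 56 probes, 54 were well above background in at least 1 RNA on all 4 arrays, and these 54 cover all 44 genes. The other 2 probes, 1 of CCNB2 and 1 of ESPL1, were not well above background in either RNA on any array.

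The knockdown material was RNA from GATA1 5-13 and GATA1 4-14, each a single colony picked from soft agar, expanded and stably carrying a GATA1 shRNA. The control was GATA1 Neg, a pool of Meg-01 cells infected with lentivirus carrying an shRNA of limited homology to known human genes, and all 3 were grown in the same medium. Each array set 1 clone against GATA1 Neg in 2 colours, and each clone had 2 arrays, replicate 1 with the clone RNA in red and replicate 2 with the dyes swapped. All values are log2 ratios of clone over GATA1 Neg, so a positive value is a higher level in the clone. Because a clone is 1 isolate and the control a pool, an effect of the shRNA and a property of the isolate cannot be told apart. The 2 arrays of a clone show measurement error alone, and only the mean of the 2 clones (n = 2) was tested, with limma. The labels name Meg-01 as the cell line but their extraction text names CMK, another megakaryoblastic line, and the samples were taken as Meg-01.

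In an ordinary mitosis, cyclin A and cyclin B activate CDK1, the kinase that starts mitosis. Chromosomes attach to the spindle through kinetochores, the spindle checkpoint holds the cell until attachment is complete, and the anaphase-promoting complex with CDC20 then destroys cyclin B and securin so that sister chromatids part. The chromosomal passenger complex corrects faulty attachments and, with kinesins, PRC1, ECT2 and anillin, builds the cleavage furrow that divides the cell. Megakaryocytes are known for endomitosis, in which cells enter mitosis but do not complete cytokinesis and so become polyploid. GATA1, a transcription factor with zinc fingers, is needed by both the megakaryocytic and the erythroid lineage. The arrays were run on bulk RNA, so a larger share of cells in mitosis and more mRNA per mitotic cell cannot be told apart.

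Many genes of this group share a promoter layout in which CCAAT boxes, bound by NF-Y, stand a short way upstream of a cell cycle genes homology region, the element read by the DREAM complex and B-MYB. Promoter windows of 300 bases (250 before and 50 after the start of the gene) from RefSeq on GRCh38.p14 were found for 39 of the 44 genes. TTK, BIRC5, TPX2, RACGAP1 and UBE2C had none. The first listed window of a gene was used, and other starts of the gene were not searched. The homology region was searched as TTTGAA, the CCAAT box as CCAAT and a GATA site as AGATAA or TGATAA, each on both strands. Variants of these letters were not searched, so a window without a match may still hold an element. The homology region was found in 26 of 39 windows, 66.7%, against 15.4% of all 27305 windows of that length. A CCAAT box was found in 30 of the 39, 76.9%, against 35.7% of all windows, and 22 windows held both. The GATA letters were found in 1 window, that of HMMR, 2.56% against 16.6% of all. In 1 member window a CCAAT match shared bases with a homology match. These are letter matches and not sites of binding. The windows compared were not matched for base composition, and nothing outside the 300 bases was searched. The shares are therefore a description, and the low GATA share is not read as a lack of GATA1 sites. Regions bound by GATA1 in the study's ChIP-on-Chip experiment were not used here.

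The 120 bases before the start are shown for 6 members on which the results below turn: INCENP (chr11:62123891-62124010, plus strand), BUB1 (chr2:110678064-110678183, minus strand) and CCNB1 (chr5:69167030-69167149, plus strand), which were among the highest, CDC20 (chr1:43358861-43358980, plus strand) and KIF2C (chr1:44739717-44739836, plus strand), which were low in GATA1 5-13, and TPR (chr1:186375254-186375373, minus strand), which had the lowest probe. Capitals mark the homology region or a CCAAT box in either orientation; a CCAAT box on the other strand reads ATTGG and a homology region TTCAAA.
INCENP: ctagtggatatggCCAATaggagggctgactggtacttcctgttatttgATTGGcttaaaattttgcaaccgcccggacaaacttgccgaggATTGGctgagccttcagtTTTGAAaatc
BUB1: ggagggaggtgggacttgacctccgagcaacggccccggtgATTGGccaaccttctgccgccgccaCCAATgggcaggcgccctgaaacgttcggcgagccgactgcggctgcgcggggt
CCNB1: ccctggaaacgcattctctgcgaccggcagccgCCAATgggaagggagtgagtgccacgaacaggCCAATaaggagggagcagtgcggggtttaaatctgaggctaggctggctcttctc
CDC20: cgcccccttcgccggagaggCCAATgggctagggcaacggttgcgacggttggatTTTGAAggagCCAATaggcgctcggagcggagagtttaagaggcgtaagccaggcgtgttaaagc
KIF2C: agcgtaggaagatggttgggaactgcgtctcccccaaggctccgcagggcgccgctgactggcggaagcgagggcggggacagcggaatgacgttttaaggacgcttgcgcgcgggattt
TPR: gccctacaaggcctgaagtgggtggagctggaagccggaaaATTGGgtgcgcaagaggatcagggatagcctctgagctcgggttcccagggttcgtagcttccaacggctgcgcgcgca
INCENP and CDC20 carry both elements in this stretch, BUB1 and CCNB1 carry 2 CCAAT boxes each and no TTTGAA, TPR carries 1 CCAAT box, and KIF2C carries neither. No test was run on the relation of these elements to the ratios.

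**Figure D1:**
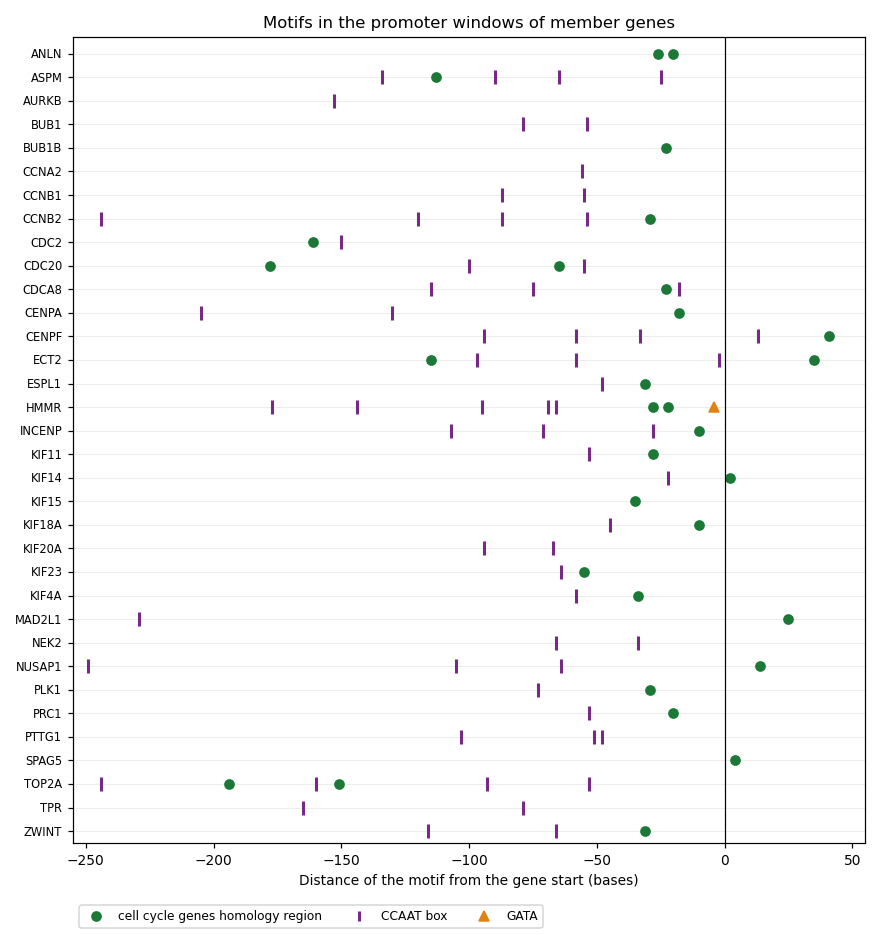
Positions of 3 motifs in the promoter windows of the 34 member genes with at least 1 match, as distance in bases from the gene start (0) on the x axis, 1 gene per row. Most CCAAT boxes (bars) and homology regions (circles) lie within the last 100 bases before the start, and the GATA letters (triangle) occur in HMMR alone.

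GATA1 itself was lower on every array. Its probe, A_24_P374244, gave -0.21 and -0.34 in GATA1 5-13 and -0.43 and -0.58 in GATA1 4-14. The mean of -0.39 (SE 0.085, n = 2) had an adjusted p of 0.61 in limma. Here and below, an SE is limma's moderated SE, which borrows from the spread of all probes. It can differ from the SE of the 2 clone values themselves. As a percentage of GATA1 Neg the level was 82.7% in GATA1 5-13 and 70.6% in GATA1 4-14. These percentages rest on 1 array probe. The study chose both clones for lower GATA1 by real-time RT-PCR and Western blot. It reported less transcript and less protein in both, with the protein further reduced in GATA1 4-14. The size of the knockdown is therefore not to be read from the array probe alone. Between 61.6% and 66.4% of spots were well above background in a channel, and 0 spots were saturated. Of the megakaryocyte markers, 7 of 11 were well above background in GATA1 Neg on all 4 arrays, PF4, PPBP, VWF and SELP being the exceptions, as were all 7 erythroid markers on the array. Of the markers of T cells, B cells, myeloid cells and epithelial or stromal cells, 1 of 3, 1 of 3, 1 of 5 and 1 of 4 were. Marker log2 ratios differed with the clone: megakaryocyte probes ran from -1.68 to 0.27 in GATA1 5-13 and from -0.26 to 0.29 in GATA1 4-14, and erythroid probes from -0.29 to 1.00 and from -0.47 to 0.038. The part of lineage differences between the clones in the mitotic genes was not tested.

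As a group, the mitotic genes were slightly higher than GATA1 Neg in GATA1 5-13 and centred near 0 in GATA1 4-14. The median log2 ratio of the 54 probes was 0.13 in GATA1 5-13 (0.11 and 0.12 on its 2 arrays) and 0.005 in GATA1 4-14 (-0.0099 and 0.047). Over all 24752 probes well above background the medians were -0.012 and -0.00099. In GATA1 5-13, 37 of 54 member probes were above 0 on both arrays, where 36.6% of all probes were, and 10 were below 0 on both, where 39.4% were. The remaining 7 changed sign with the dye. In GATA1 4-14, 17 member probes were above 0 on both arrays (30.2% of all probes) and 11 below (31.5%), while 26 changed sign with the dye. Counted by gene, 34 of 44 were higher in GATA1 5-13 and 25 of 44 in GATA1 4-14. All probes well above background, counted by probe, were split almost evenly above and below 0 in each clone, and 25 of 44 is near such a split. From the same arrays, with both clones combined, the study reported its lower genes as enriched for regulators of cell division and cell death. Its statement concerns probes passing a p cutoff and a wider annotated class, so it is not the same measure as these medians. That enrichment was not repeated here.

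The changes were small. Member probes ran from -0.48 to 0.58 in GATA1 5-13 and from -0.29 to 0.32 in GATA1 4-14, with an SD over probes of 0.21 and 0.10. All probes well above background had SDs of 0.35 and 0.24. At 1.2-fold on both arrays, 9 member probes were higher in GATA1 5-13 (9.05% of all probes were) and 2 were lower (11.6%). The 9 were probes of BUB1, MAD2L1, CCNB1, INCENP, KIF23, ECT2 and RACGAP1 with both probes of CENPJ, and the 2 were KIF2C and 1 probe of TPR. In GATA1 4-14, CCNB3 alone passed 1.2-fold upward (3.76% of all probes did) and 0 members did so downward (4.51%). The count of 9 was 2 when the arrays were centred on the median in place of loess. On a single array of GATA1 5-13, without the condition on both, it was 11 on the first and 18 on the second. In GATA1 4-14 the higher count was 4 on its second array alone, and on its first array alone 2 were higher and 2 lower. Shares of all probes under these changed rules are not given, and those quoted for both arrays do not apply to them.

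**Figure D2:**
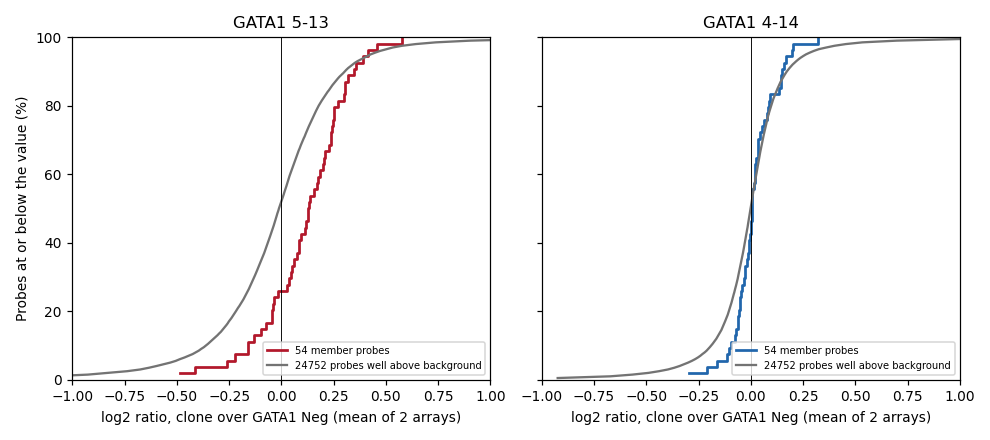
Cumulative distribution of the log2 ratio of clone over GATA1 Neg (x axis, mean of 2 arrays) for the 54 member probes and for all 24752 probes well above background (y axis, percentage of probes at or below the value), 1 panel per clone. In GATA1 5-13 the member curve lies to the right of the curve of all probes through most of its range, with medians of 0.13 and -0.012. In GATA1 4-14 the curves cross near 0.

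No member passed the test on the mean of the 2 clones. With limma and Benjamini-Hochberg adjustment over all 40974 probes, 0 member probes had an adjusted p under 0.05 (0% of all probes did), and the lowest adjusted p of a member was 0.58. At an unadjusted p under 0.05, 5 member probes were higher (3.38% of all probes were) and 2 were lower (4.04%). The higher count was 2 without the first array of GATA1 5-13 and 2 without the second array of GATA1 4-14. The study itself had listed TTK, CENPE, CENPJ, CCNB3 and TPR as differentially expressed on these arrays and bound by GATA1 in its ChIP-on-Chip experiment. That list was limited to such genes tied to cell cycle, apoptosis or proliferation. Other members in the study's longer probe lists are not given here. Counts of called members therefore give no independent support for a change in the group. On sign alone, 15 member probes were above 0 on all 4 arrays (15.8% of all probes were) and 3 were below 0 on all 4 (17.3%). Set against each other, 42 of 54 member probes had a higher ratio in GATA1 5-13 than in GATA1 4-14, compared with 48.4% of all probes. The median difference was 0.11 over the members and -0.0085 over all probes. For 8 member probes both arrays of one clone were above 0 and both of the other below 0, as for 18.7% of all probes. This difference between clones has 1 isolate on each side and was not tested.

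**Figure D3:**
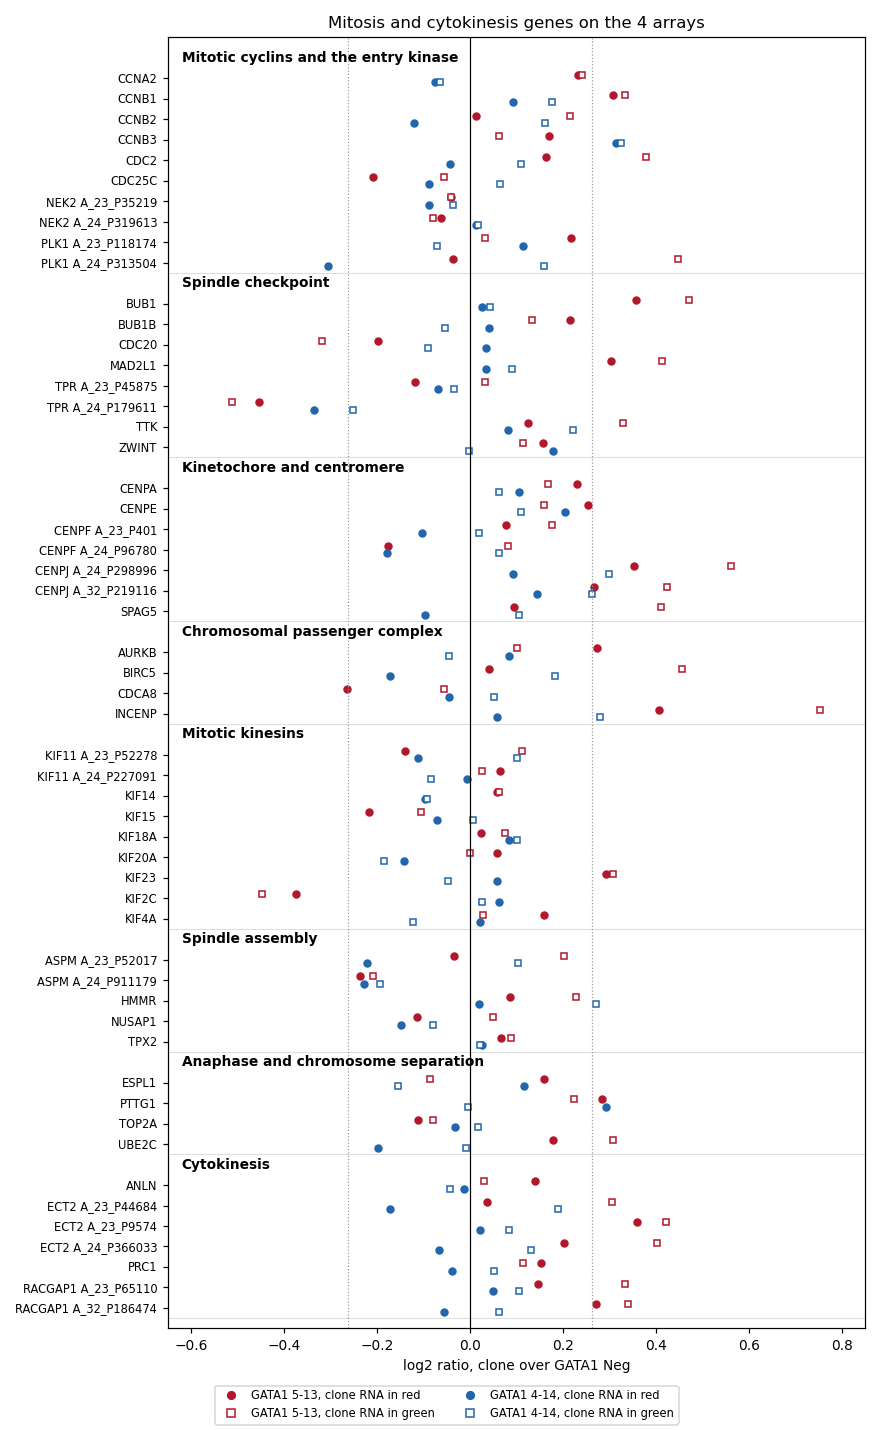
The log2 ratio of clone over GATA1 Neg (x axis) of each of the 54 member probes on the 4 arrays, 1 probe per row, ordered by role; circles are arrays with the clone RNA in red, squares those with it in green, and dotted lines mark 1.2-fold. INCENP, BUB1, MAD2L1, CCNB1 and CENPJ lie to the right on both GATA1 5-13 arrays, KIF2C and TPR A_24_P179611 lie to the left, and most GATA1 4-14 points lie near 0.

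Among the cyclins and kinases of mitotic entry, the 10 measured probes had medians of 0.12 in GATA1 5-13 and 0.018 in GATA1 4-14. Cyclin B1 (CCNB1), the main partner of CDK1, gave 0.31 and 0.33 in GATA1 5-13 and 0.093 and 0.18 in GATA1 4-14. All 4 arrays were above 0. Its mean was 0.23 (SE 0.075, n = 2; limma adjusted p = 0.68). Cyclin A2 (CCNA2), which acts in S phase and early mitosis, was above 0 in GATA1 5-13, at 0.23 and 0.24, and below 0 in GATA1 4-14, at -0.074 and -0.064. CDC2 (CDK1) gave 0.16 and 0.38 in GATA1 5-13 and -0.043 and 0.11 in GATA1 4-14. In each of these 3 genes both GATA1 5-13 arrays lay above both GATA1 4-14 arrays. The share of all probes with such a separation is not given, so it cannot be called particular to these genes. CCNB3, a B-type cyclin best known from meiosis, ran the other way. It gave 0.17 and 0.063 in GATA1 5-13 and 0.31 and 0.33 in GATA1 4-14.

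CCNB2, the other somatic B cyclin, gave 0.013 and 0.22 in GATA1 5-13 and -0.12 and 0.16 in GATA1 4-14. CDC25C, the phosphatase that activates CDK1, gave -0.21 and -0.055 against -0.089 and 0.065. NEK2, a centrosome kinase, had 2 probes, and A_23_P35219 was 1 of the 3 member probes below 0 on all arrays. Its values of -0.04, -0.042, -0.087 and -0.036 had a mean of -0.051 (SE 0.054, n = 2; limma adjusted p = 0.84). PLK1, the polo-like kinase of mitotic entry and spindle formation, showed how strongly dye could act. Probe A_24_P313504 gave -0.037 and 0.45 in GATA1 5-13 and -0.31 and 0.16 in GATA1 4-14, while A_23_P118174, 0.658 kb away, gave 0.22 and 0.032 against 0.11 and -0.07. The dye moved the probes in opposite directions, yet after averaging over the swap they had means of 0.065 and 0.074.

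Most genes of the spindle checkpoint were higher in GATA1 5-13, with medians of 0.15 there and 0.014 in GATA1 4-14 over 8 probes. BUB1, a checkpoint kinase of the kinetochore, had ratios of 0.36 and 0.47 in GATA1 5-13 and of 0.026 and 0.042 in GATA1 4-14. That is 133.2% of GATA1 Neg in the first clone and 102.4% in the second, and the mean was 0.22 (SE 0.12, n = 2; limma adjusted p = 0.73). MAD2L1, which encodes MAD2, the protein that holds CDC20 in check, had the same form. Its ratios were 0.30 and 0.41 in GATA1 5-13 and 0.034 and 0.091 in GATA1 4-14. BUB1B, the gene of BUBR1, was smaller in size, with 0.22 and 0.13 against 0.041 and -0.055. TTK (MPS1), the kinase that starts the checkpoint signal, was above 0 on all 4 arrays, at 0.12 and 0.33 in GATA1 5-13 and 0.082 and 0.22 in GATA1 4-14. Its mean was 0.19 (SE 0.058, n = 2; unadjusted p = 0.045, limma adjusted p = 0.67). ZWINT, a kinetochore protein that recruits ZW10, gave 0.16 and 0.11 against 0.18 and -0.0028.

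CDC20, the checkpoint's target, lay on the other side of GATA1 Neg from BUB1 and MAD2L1 in GATA1 5-13. It gave -0.20 and -0.32 there and 0.034 and -0.091 in GATA1 4-14. TPR, a nuclear pore protein that binds the MAD1 and MAD2 proteins, had the lowest member probe. A_24_P179611 (hg18 chr1:184591452-184591511, minus strand) gave -0.45 and -0.51 in GATA1 5-13 and -0.34 and -0.25 in GATA1 4-14. All 4 arrays were below 0, at 71.5% and 81.6% of GATA1 Neg, and the mean was -0.39 (SE 0.076, n = 2; unadjusted p = 0.014, limma adjusted p = 0.58). The second TPR probe, A_23_P45875 (hg18 chr1:184550412-184550471), gave -0.12 and 0.033 in GATA1 5-13 and -0.069 and -0.035 in GATA1 4-14. TPR was thus low at 1 probe and close to 0 at the other, 41.0 kb away, and which of them stands for the whole transcript was not tested.

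Kinetochore and centromere genes were the role with the highest median in GATA1 4-14, 0.085 over 7 probes of 5 genes, and had 0.21 in GATA1 5-13. The rank in GATA1 4-14 rests on the 2 probes of CENPJ, which is not a kinetochore gene, at 0.20 each. In that clone CENPF had means of -0.043 and -0.058 and SPAG5 one of 0.0046, while CENPA and CENPE were higher. CENPE, the kinesin-like motor that moves chromosomes to the spindle equator, gave 0.25 and 0.16 in GATA1 5-13 and 0.20 and 0.11 in GATA1 4-14. The clones overlapped, all 4 arrays were above 0, and the mean was 0.18 (SE 0.055, n = 2; unadjusted p = 0.045, limma adjusted p = 0.67). CENPA, the histone H3 variant of the centromere, gave 0.23 and 0.17 against 0.11 and 0.063. CENPJ, a centriole protein needed for centriole growth, was the only member of this role with both probes past 1.2-fold in GATA1 5-13. Probe A_24_P298996 gave 0.35 and 0.56 in GATA1 5-13 and 0.093 and 0.30 in GATA1 4-14, with a mean of 0.33 (SE 0.092, n = 2; unadjusted p = 0.036, limma adjusted p = 0.65). Probe A_32_P219116 gave 0.27 and 0.42 against 0.15 and 0.26, with a mean of 0.27 (SE 0.067, n = 2; unadjusted p = 0.025, limma adjusted p = 0.63). CENPJ was the one member gene with several probes of which each was above 0 on all 4 arrays.

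SPAG5 (astrin), a spindle and kinetochore protein, gave 0.094 and 0.41 in GATA1 5-13 and -0.10 and 0.11 in GATA1 4-14. CENPF, a large protein of the outer kinetochore, had 1 probe at 0.077 and 0.18 against -0.10 and 0.019. Its other probe, 11.1 kb away, gave -0.18 and 0.081 against -0.18 and 0.061, with the same swing between the dyes in both clones.

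The chromosomal passenger complex held the highest member. INCENP, its scaffold, had log2 ratios of 0.41 and 0.75 in GATA1 5-13 and of 0.059 and 0.28 in GATA1 4-14. The level was 149.4% of GATA1 Neg in GATA1 5-13 and 112.5% in GATA1 4-14. Its mean was 0.37 (SE 0.13, n = 2; limma adjusted p = 0.68). The 3 partners of INCENP did not share its size. AURKB, the kinase of the complex, gave 0.27 and 0.10 against 0.084 and -0.045. BIRC5 (survivin) gave 0.04 and 0.46 against -0.17 and 0.18. CDCA8 (borealin) was below 0 in GATA1 5-13, at -0.26 and -0.057, and near 0 in GATA1 4-14, at -0.045 and 0.052.

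Taken by probe, mitotic kinesins had the lowest median of any role in GATA1 5-13, 0.045, and one of -0.032 in GATA1 4-14 over 9 probes. Taken by gene, the spindle assembly genes had the lower median in GATA1 5-13. KIF23 (MKLP1), the kinesin of the central spindle, was high in GATA1 5-13, at 0.29 and 0.31, and gave 0.058 and -0.048 in GATA1 4-14. KIF2C (MCAK), which removes faulty microtubule attachments, was the lowest kinesin. It gave -0.38 and -0.45 in GATA1 5-13, 75.2% of GATA1 Neg, and 0.062 and 0.025 in GATA1 4-14. KIF15 gave -0.22 and -0.10 against -0.07 and 0.0061. KIF20A (MKLP2) was near 0 in GATA1 5-13, at 0.057 and 4.3e-05, and lower in GATA1 4-14, at -0.14 and -0.18. KIF14, which acts with PRC1 in cytokinesis, gave 0.059 and 0.062 against -0.10 and -0.092. Values of KIF4A, KIF18A and both KIF11 probes lay between -0.14 and 0.16 on all 4 arrays.

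Spindle assembly genes had medians of 0.076 in GATA1 5-13 and -0.06 in GATA1 4-14 over 5 probes. ASPM, a protein of the spindle poles, had 2 probes 59.7 kb apart that did not match. A_24_P911179 was below 0 throughout, at -0.24 and -0.21 in GATA1 5-13 and -0.23 and -0.19 in GATA1 4-14. Its mean was -0.22 (SE 0.054, n = 2; unadjusted p = 0.026, limma adjusted p = 0.63). A_23_P52017 gave -0.034 and 0.20 against -0.22 and 0.10. HMMR, a spindle protein, was above 0 on all 4 arrays, at 0.087 and 0.23 in GATA1 5-13 and 0.019 and 0.27 in GATA1 4-14. TPX2, which activates Aurora A, lay between 0.021 and 0.087, and NUSAP1 between -0.15 and 0.049.

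Of the genes that act as chromatids part, PTTG1 (securin), the inhibitor of separase, was above 0 on 3 of 4 arrays. It gave 0.28 and 0.22 in GATA1 5-13 and 0.29 and -0.0049 in GATA1 4-14, with a mean of 0.20 (SE 0.062, n = 2; unadjusted p = 0.048, limma adjusted p = 0.67). UBE2C, the ubiquitin-conjugating enzyme of the anaphase-promoting complex, gave 0.18 and 0.31 against -0.20 and -0.0081, so that its clones lay on opposite sides of GATA1 Neg. TOP2A, which untangles sister chromatids, gave -0.11 and -0.08 against -0.032 and 0.017. The measured probe of ESPL1, the gene of separase, followed the dye, with 0.16 and -0.086 in GATA1 5-13 and 0.12 and -0.15 in GATA1 4-14.

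Taken by probe, cytokinesis genes had the highest median of any role in GATA1 5-13, 0.24 over 7 probes of 4 genes, and 0.0083 in GATA1 4-14. ECT2 counts 3 times and RACGAP1 2 times in that ranking, and taken by gene the role was not the highest. All 7 probes were above 0 on both GATA1 5-13 arrays, where 36.6% of all probes were. ECT2, which activates RhoA at the cleavage furrow and is lowered in endomitotic megakaryocytes, had 3 probes. A_23_P9574 gave 0.36 and 0.42 in GATA1 5-13 and 0.022 and 0.084 in GATA1 4-14. A_24_P366033 gave 0.20 and 0.40 against -0.066 and 0.13, and A_23_P44684 gave 0.036 and 0.31 against -0.17 and 0.19. On each ECT2 probe the mean of GATA1 5-13 was above that of GATA1 4-14, by 0.34, 0.27 and 0.16. RACGAP1, the partner of KIF23 and ECT2 at the central spindle, gave 0.27 and 0.34 against -0.057 and 0.061 at A_32_P186474. Its other probe, 0.107 kb away, gave 0.15 and 0.33 against 0.05 and 0.11. PRC1, which bundles the central spindle, gave 0.15 and 0.11 against -0.04 and 0.052. ANLN (anillin), the scaffold of the furrow, gave 0.14 and 0.03 against -0.013 and -0.042.

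Measurement error could be read directly for 5 members whose probe was printed at 10 spots on each array, of which 8 to 10 were used. The SD over spots was 0.014 to 0.057 on the log2 scale. For CCNA2 the spot means were 0.232 ± 0.0496 and 0.242 ± 0.0341 in GATA1 5-13 (SD, 10 spots each) and -0.0743 ± 0.0387 and -0.0644 ± 0.0467 in GATA1 4-14. The spots of one clone and those of the other did not overlap. BIRC5 showed a larger swing between the dyes than between spots: 0.0399 ± 0.0313 (SD, 8 spots) on the first array of GATA1 5-13 and 0.455 ± 0.047 (SD, 10 spots) on the second. In GATA1 4-14 it gave -0.172 ± 0.0464 (SD, 8 spots) and 0.182 ± 0.0439 (SD, 10 spots). Over the 54 probes, the median size of the dye effect, taken as the array difference averaged over the clones and divided by 2, was 0.056, against a median size of 0.093 for the mean log2 ratio. In 16 of 54 probes the dye effect was the larger. Values of both dye orientations are therefore given throughout.

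**Figure D4:**
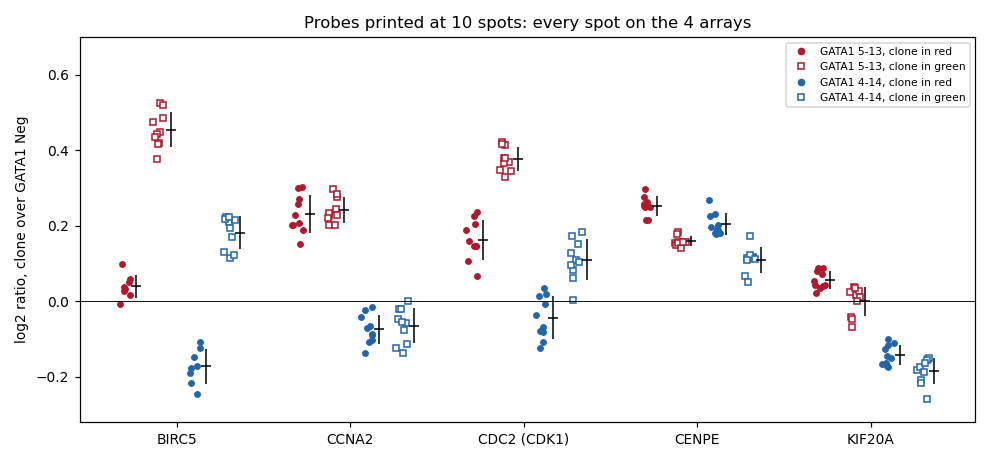
The log2 ratio of clone over GATA1 Neg (y axis) at every used spot of the 5 member probes printed at 10 spots, for the 4 arrays side by side; black marks give the mean and SD over spots. CCNA2 separates the clones with the 2 dye orientations together, while the spots of BIRC5 separate the dye orientations within each clone.

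Position on the chromosome was examined because the clones are single isolates; this comparison was chosen after the values had been seen. For each member probe, the median of the other non-member probes well above background within 5 Mb (21 to 294 probes, on hg18) was taken. CDCA8, CDC20 and KIF2C, all below 0 in GATA1 5-13, lie on the short arm of chromosome 1 within 7.06 Mb of each other (hg18 chr1:37947736-45005712). The 125 other probes in that stretch were centred at -0.26 in GATA1 5-13, with 114 below 0 (91.2%), and at -0.0007 in GATA1 4-14, with 63 below 0 (50.4%). The mean ratios of the 3 members in GATA1 5-13 were -0.16, -0.26 and -0.41. Relative to the probes within 5 Mb they were 0.11, -0.014 and -0.16, so that KIF2C alone of the 3 stayed well below its neighbours. In GATA1 4-14 the same members gave 0.0035, -0.028 and 0.044. The part of DNA copy number in this stretch was not tested.

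For the other members the neighbour medians in GATA1 5-13 lay between -0.11 and 0.14. Member ratios taken relative to their neighbours were centred at 0.13 in GATA1 5-13 and at 0.0093 in GATA1 4-14 (medians). Most neighbour medians outside the stretch lay near 0, so this subtraction could change the member median little. No conclusion about position is drawn from it. Across the 54 probes in GATA1 5-13, member and neighbour values had a Pearson r of 0.29 and a Spearman rho of -0.082, a description only, since probes on 1 chromosome share neighbours. Neither TPR nor ASPM lies in the stretch. In GATA1 4-14 the neighbour medians of all members lay between -0.096 and 0.038, and those of the ASPM probes were the lowest, at -0.096 and -0.09. On the same chromosome they were -0.068 for KIF14 and -0.06 for NEK2, whose probe A_23_P35219 itself had a mean of -0.062 in GATA1 4-14. The part of DNA copy number there was not tested.

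**Figure D5:**
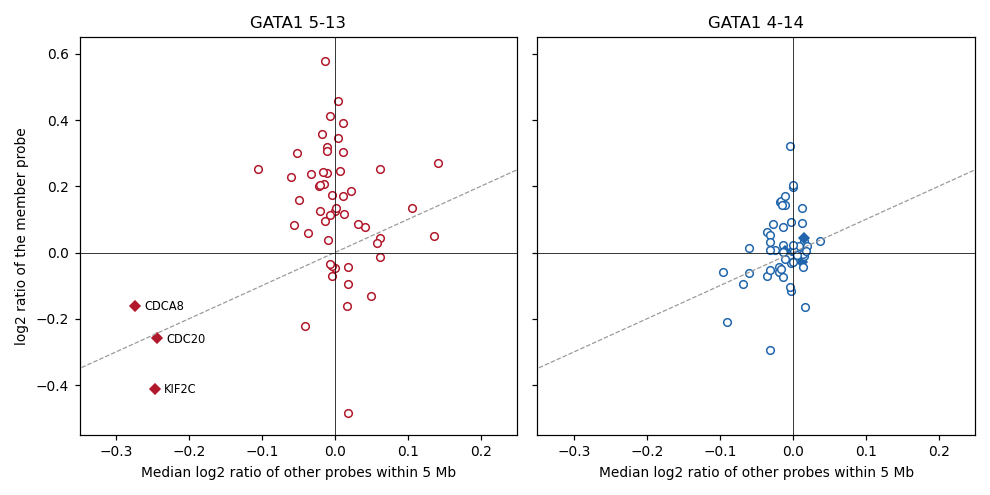
The mean log2 ratio of each of the 54 member probes (y axis) against the median log2 ratio of other probes within 5 Mb (x axis), 1 panel per clone; the dashed line marks equal values and filled diamonds mark CDCA8, CDC20 and KIF2C. In GATA1 5-13 these 3 lie apart at neighbour medians between -0.27 and -0.24, and in GATA1 4-14 they lie with the other members near 0.

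Other genes of the same process were read from a separate list. Of 107 listed symbols, some of them older names of one gene, 89 were on the array with 133 probes, of which 127 were well above background. Their medians were 0.046 in GATA1 5-13 and 0.0087 in GATA1 4-14. In GATA1 5-13, 55 were above 0 on both arrays (36.6% of all probes were) and 33 below (39.4%). At 1.2-fold, 9 were higher (9.05% of all probes) and 8 lower (11.6%) in GATA1 5-13. In GATA1 4-14, 0 were higher (3.76%) and 2 lower (4.51%). In limma 0 passed the adjusted threshold, and 2 were higher (3.38% of all probes) and 2 lower (4.04%) at an unadjusted p under 0.05. By role, the median in GATA1 5-13 ran from -0.056 (cytokinesis and endomitosis) to 0.094 (mitotic entry). ANAPC11, the RING subunit of the anaphase-promoting complex, gave 0.62 and 0.52 in GATA1 5-13 and 0.089 and 0.082 in GATA1 4-14. CKS2, a small protein that binds CDK1, gave 0.45 and 0.47 against 0.15 and 0.21. SGOL2 (shugoshin 2), which guards centromeric cohesion, gave 0.41 and 0.50 against 0.071 and 0.17. Among probes below 0 on all 4 arrays, the lowest were FAM64A, which promotes the metaphase-to-anaphase step, with -0.40 and -0.35 against -0.37 and -0.29 (mean -0.35, SE 0.055, n = 2; limma adjusted p = 0.56), SASS6, a centriole cartwheel protein, and ARHGEF2, a RhoA activator that, like ECT2, is lowered in endomitotic megakaryocytes. SASS6 gave -0.58 and -0.36 in GATA1 5-13 and -0.21 and -0.047 in GATA1 4-14. ARHGEF2 gave -0.40 and -0.46 against -0.11 and -0.14, opposite in sign to ECT2 in GATA1 5-13. Probes with a mean below 0 in 1 clone alone, named after their values were seen, reached lower values. KNTC2 (NDC80), a kinetochore protein that binds microtubules, gave -0.74 and -0.51 in GATA1 5-13 and -0.13 and 0.23 in GATA1 4-14 at A_23_P50108. CDC23, a subunit of the anaphase-promoting complex, gave 0.16 and 0.30 against -0.94 and -0.82 at A_24_P913227, while its other probe, A_23_P133629, gave 0.032 and 0.049 against 0.14 and 0.081.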

How the data were processed

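Total RNA of GATA1 5-13, GATA1 4-14 and GATA1 Neg was measured on 4 two-colour Agilent arrays, all on 1 slide, with probe positions on hg18. The authors deposited scanner output of Feature Extraction 9.5.3.1: linear spot intensity and local background in both channels, not normalized. The same program wrote the deposited log10 ratios, after background subtraction and dye normalization, with an error in log10 units, and the authors' series-wide values are those log10 ratios turned to clone over control. These served as alternatives.

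In limma 3.58.1 (R 4.3.3), the 45015 spots of an array were corrected by normexp with an offset of 50 and normalized by loess within the array. Control and outlier spots (135 to 152 per array) were left out, spots of a probe averaged, and log2 ratios from the deposited intensities turned to clone over GATA1 Neg. The dye-swapped arrays of a clone were averaged, and limma's moderated test set the mean of 2 clones against 0 over 40974 probes, two-sided, with Benjamini-Hochberg adjustment. Each SE given with a mean is the moderated one of this test, drawn toward a value common to all probes. The spread of GATA1 Neg was not measured. Of the 44 symbols, 42 were matched to a current one through RefSeq. Figures used matplotlib 3.10.9 in Python 3.11.15.

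The members, their roles, the list of other mitosis genes and the tests were chosen with earlier results of these data known. Probes named with full statistics were the 5 highest and 5 lowest with 1 sign on all 4 arrays (3 lower ones existed), those with an unadjusted p under 0.05, and those past 1.2-fold in opposite directions in the clones (there were 0). For the other mitosis genes, the 3 highest and 3 lowest were named by the same criteria. Other values are given so that every member is accounted for. The alternatives changed the background correction, the source of the ratios, the normalization, the filters, the moderation, the treatment of replicates and the arrays used.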

Additional observations from a re-analysis of the deposited data

Results flagged for a closer look

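For 8 of the 54 member probes, both arrays of one clone lay above 0 and both of the other below 0, as was the case for 18.7% of the 24752 probes well above background. The difference between the clones was not tested in any of them. GATA1 5-13 minus GATA1 4-14 was 0.31 for CCNA2 and 0.35 for UBE2C, both higher in GATA1 5-13. It was 0.19 for KIF20A, 0.15 for KIF14, 0.11 for ANLN and 0.090 for KIF11 (A_24_P227091), where each clone lay within 0.17 of GATA1 Neg on its mean. It was -0.45 for KIF2C, whose neighbours on chromosome 1 were also below 0 in GATA1 5-13, and -0.086 for NEK2 (A_24_P319613).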

How the results depend on the processing

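Limits are the 2 clones, the single control pool and the dye effect; probes near background carry little. Of the counts and medians under each alternative, 86 stayed within the spread between arrays or clones, or within 1.5 times the count, and 30 did not. No member probe passed the adjusted threshold except under the 4 arrays as 4 values without a replicate block (1, TPR A_24_P179611, adjusted p 0.031, where 3.03% of all probes passed) and the error-weighted mean (6, where 8.62% passed). The latter weights by the program's own spot errors and leaves out the spread between clones. Arrays of the same number share the dye orientation, and their deviations from the clone means had a correlation of 0.77, a single value, since the deviations of a clone's 2 arrays are equal and opposite. With the replicate block 0 members passed, and 12 were higher at an unadjusted p under 0.05 (14 without the block, 13 error-weighted, 5 as reported). Of all probes, 8.79%, 8.66%, 8.14% and 3.38% were higher under these fits. That higher count was 3 with Feature Extraction's log ratio, the series-wide table or an intensity trend and 2 on probes well above background alone, and the lower count was 1 in each of these 4. The median of GATA1 5-13 was 0.149 with Feature Extraction's ratios and with the series-wide table and 0.165 with median centring. Past 1.2-fold, median centring left 2 higher and 0 lower members in GATA1 5-13 and 0 higher in GATA1 4-14, which was also 0 without background correction, while 1 was lower in GATA1 4-14 with Feature Extraction's ratios or the series-wide table. Leaving out 1 array in turn gave 2 to 7 members higher at an unadjusted p under 0.05 (2 without the first array of GATA1 5-13 or the second of GATA1 4-14), medians of 0.109 to 0.130 in GATA1 5-13 and -0.0099 to 0.047 in GATA1 4-14, and, past 1.2-fold, 9 to 18 higher members in GATA1 5-13, 1 to 4 higher and 0 to 2 lower in GATA1 4-14, with the arrays that set these named in the report. Shares of all probes past 1.2-fold under these alternatives are not given, so the counts past 1.2-fold cannot be set against them. None of the 11 named probes changed sign under any alternative run. Causes of these shifts were not tested, apart from the smaller number of arrays.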
